A study of Mus musculus with 3 samples.

Results

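The histone genes of the Hist clusters were 67 of the 32285 genes in the deposited gene list, taken as every gene whose symbol begins with Hist1h, Hist2h, Hist3h or Hist4h. Of these, 54 lie in the Hist1 cluster on chromosome 13, 10 in the Hist2 cluster on chromosome 3, 2 in the Hist3 cluster on chromosome 11 and 1, Hist4h4, on chromosome 6. By product they are 18 H2A, 18 H2B, 12 H3 and 13 H4 genes, which encode the proteins of the nucleosome core, and 6 genes for the linker histone H1. They were measured in 3 single-cell libraries of E14tg2a cells, a mouse embryonic stem cell line, all with the genotype Fgf4 -/- and so without their own FGF4, a growth factor that drives these cells out of naive pluripotency. After seeding in ES medium with the cytokine LIF, the cells were kept for 24 h in the defined medium N2B27 with Chiron, an inhibitor of the kinase GSK3, heparin, and FGF4 at 0, 5 or 50 ng/ml. Each dose was 1 library and no dose had a replicate, so that no test between doses was possible, and the 95% intervals given here cover counting error only.

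Most histone protein is made while DNA is copied. The genes of these clusters are replication-dependent: they are transcribed together at the start of S phase under the coactivator NPAT, and their messages are destroyed when replication ends. Their messages end in a conserved stem-loop in place of a poly(A) tail, and the stem-loop binding protein SLBP guides their cutting, translation and decay. A smaller set of histone genes outside the clusters, such as H3f3a and H3f3b for the variant H3.3, is expressed through the cell cycle and ends in a poly(A) tail. Embryonic stem cells divide fast with a short G1 phase, so that a large share of them is in S phase at any time. The libraries were primed on poly(A) RNA, and each unique molecular identifier (UMI) marks 1 captured 3′ end. Levels are therefore not divided by length, and a level here is that of captured RNA rather than of all histone message.

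The 3′ ends are shown first because each UMI marks a captured 3′ end. Which of their features bear on capture was not tested. The stem-loop was found in the annotated GENCODE M21 transcripts of 46 of the 67 genes. It read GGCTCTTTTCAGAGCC in 26 genes, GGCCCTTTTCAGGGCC in 7 genes, all of them H4, and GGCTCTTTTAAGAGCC in 6 genes, with the other 7 genes spread over 5 further variants. The sites below belong to the 4 genes with the longest runs of A before the stem-loop, to an H1 and an H4 gene among the 12 with the most UMIs, and to Hist1h2bk and Hist1h2ab, which were at least 1.5-fold apart between doses. Each line gives the transcribed strand from 5′ to 3′, with the stem-loop in capitals and the 14 bases before it in lower case.
Hist1h2ap: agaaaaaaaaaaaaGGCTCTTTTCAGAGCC
Hist1h2ao: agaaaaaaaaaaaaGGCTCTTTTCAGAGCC
Hist1h2ae: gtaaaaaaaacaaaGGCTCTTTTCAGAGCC
Hist1h3c: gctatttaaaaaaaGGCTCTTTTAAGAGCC
Hist1h1e: cccaacaacccaaaGGCTCTTTTCAGAGCC
Hist1h4d: acccaaaaaccaaaGGCCCTTTTCAGGGCC
Hist1h2bk: cgtctagcaccaaaGGCTCTTTTAAGAGCC
Hist1h2ab: ttaaccaaaacaaaGGCTCTTTTCAGAGCC

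All 8 sites lie on chromosome 13 (GRCm38, the assembly also called mm10), within annotated exons. The site of Hist1h2ap is at chr13:21833029-21833058 on the minus strand, that of Hist1h2ae at chr13:23570668-23570697 on the minus strand and that of Hist1h3c at chr13:23745047-23745076 on the minus strand. The run of A before the stem-loop was 12 bases long in Hist1h2ap and Hist1h2ao, 8 in Hist1h2ae and 7 in Hist1h3c. No other gene with a stem-loop had a run of 6 or more there. Hist1h2ap, Hist1h2ae and Hist1h3c ranked 1, 2 and 4 of the 67 genes in UMIs, while Hist1h2ao ranked 60 with 9, 37 and 28 UMIs at 0, 5 and 50 ng/ml. Elsewhere in annotated transcripts, runs of A reached 15 bases in Hist1h2ac, which ranked 45, and 11 in Hist1h2be, which ranked 27. Whether any of these runs took part in priming was not tested. Hist1h1b, which ranked 3, has no stem-loop in its annotated transcript. A polyadenylation signal, AATAAA, lay within 40 bases of the annotated end in 12 genes. Among them were Hist1h2ae and Hist1h1c, where it lay 28 and 26 bases from the end.

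Near-identical copies limit what a count can be assigned to. In 32 of the 67 genes more than 50% of all stretches of 50 bases in the annotated transcript also occur in another gene. Hist1h2ap shares 93.1% of them, and its last 200 stretches are all shared with Hist1h2ao. Hist1h3e and Hist1h3f share all of their last 200 stretches with each other. The last 200 stretches of Hist1h1e also lie within the annotated span of Hist1h2be. Hist1h1b and Hist1h1a share none. The split of UMIs within such groups of copies is uncertain. Sums over a class are less exposed to a split between copies of the same class. They remain exposed to any reads left uncounted because they match several genes, and that loss was not tested.

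The libraries held 373, 874 and 975 cell barcodes and 42726514, 75184072 and 81409975 UMIs at 0, 5 and 50 ng/ml, and they shared no barcode. The median UMI count per cell was 107873, 91764 and 87334 in the same order. Over 10% of the UMIs came from mitochondrial genes in 12, 133 and 153 barcodes of the 3 libraries. The embryonic stem cell genes Pou5f1, Sox2, Nanog, Zfp42, Esrrb and Dppa5a summed to 4700, 4280 and 3968 UMIs per 1000000 library UMIs (CPM). A list of 6 fibroblast genes for feeder cells summed to 1.97, 2.35 and 2.64 CPM, with Col3a1 at 0 in all 3 libraries, and a list of 5 primitive endoderm genes summed to 2.22, 1.42 and 3.71 CPM.

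Histone genes gave 165455, 286221 and 259744 UMIs at 0, 5 and 50 ng/ml. That is 0.387%, 0.381% and 0.319% of all UMIs, or 3872, 3807 and 3191 CPM. The sum at 50 ng/ml was thus 0.824 times that at 0 ng/ml (95% interval 0.819 to 0.829) and 0.838 times that at 5 ng/ml (0.834 to 0.843). The sum at 5 ng/ml was 0.983 times that at 0 ng/ml (0.977 to 0.989), and the direction of this small difference rests on 1 gene. Without Hist1h2ap the ratio of 5 over 0 ng/ml became 1.05 (1.04 to 1.06), whereas that of 50 over 0 ng/ml stayed below 1 at 0.862 (0.853 to 0.870).

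The classes differed in level and in their order over the doses. H2A, which pairs with H2B in the nucleosome core, summed to 2883, 2762 and 2328 CPM at 0, 5 and 50 ng/ml and held 72.6% to 74.5% of all histone UMIs. H1, the linker histone that binds the DNA between nucleosomes, summed to 524, 564 and 478 CPM. H3 summed to 212, 201 and 160 CPM, and H4, its partner in the core, to 143, 139 and 109 CPM. H2B summed to 111, 141 and 114 CPM. The 50 ng/ml library was the lowest of the 3 in H1, H2A, H3 and H4. For H2B the 0 ng/ml library was the lowest, and its ratio of 50 over 0 ng/ml was 1.03 (0.996 to 1.07), against 0.758 for H3 (0.738 to 0.779) and 0.766 for H4 (0.741 to 0.792). The ratio of 5 over 0 ng/ml was 1.27 for H2B (1.23 to 1.32), 1.08 for H1 (1.06 to 1.09), 0.958 for H2A, 0.949 for H3 and 0.971 for H4. H2A without its leading pair, Hist1h2ap and Hist1h2ae, summed to 87.9, 118 and 82.0 CPM, an order over the doses that is unlike that of the full class.

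**Figure D1:**
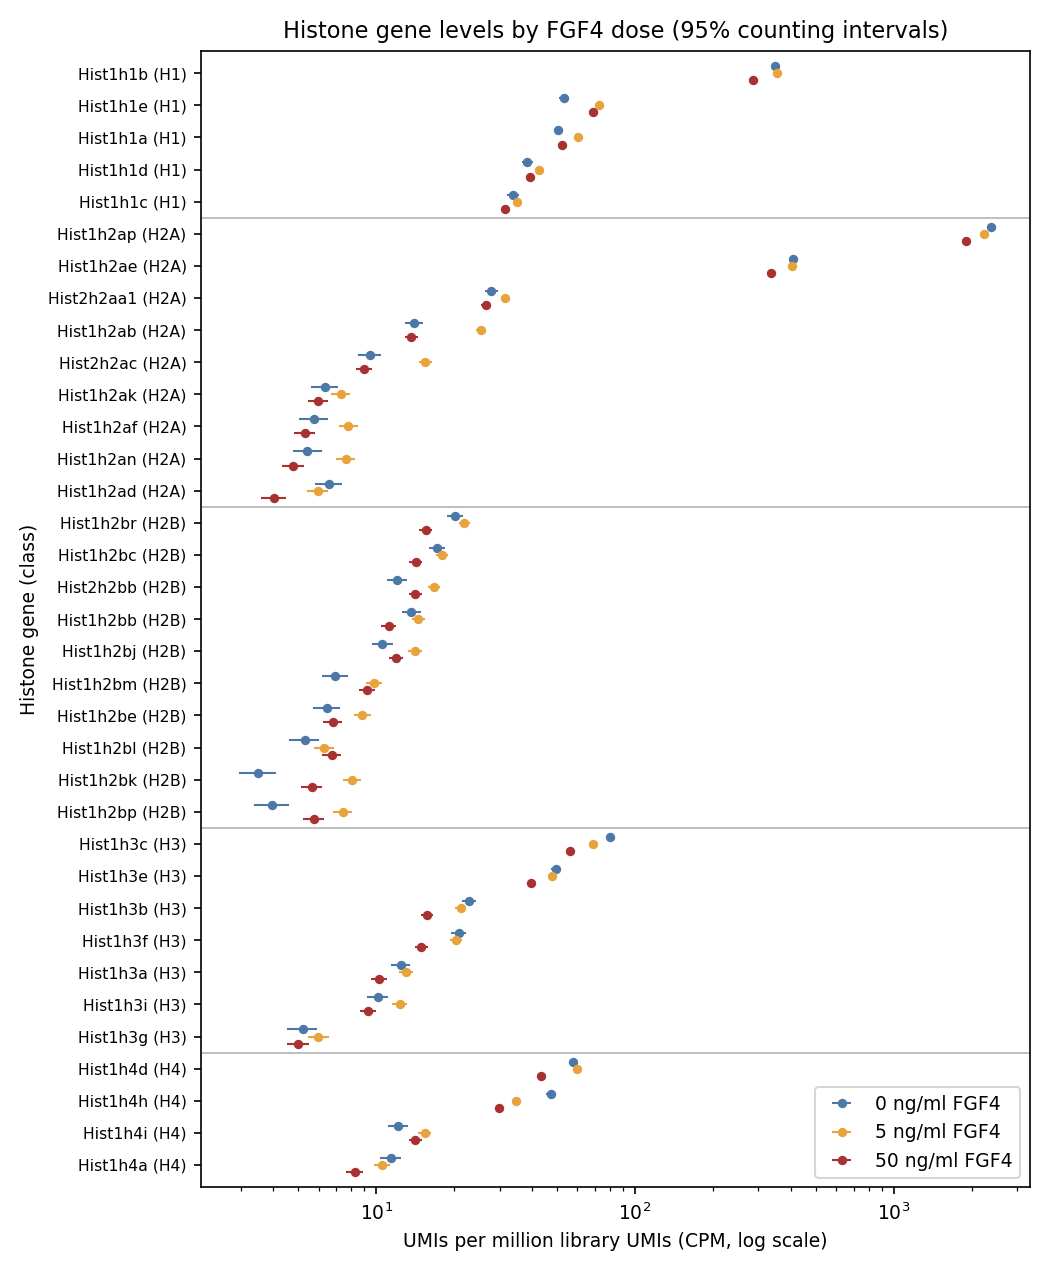
CPM (log scale) of the 35 histone genes with a mean of at least 5 CPM, grouped by class, at 0, 5 and 50 ng/ml FGF4; bars are 95% counting intervals. Hist1h2ap stands far to the right at 2385, 2239 and 1909 CPM, and most genes lie below 100 CPM with the 50 ng/ml point to the left of the 5 ng/ml point.

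Few genes made up most of the histone UMIs. Hist1h2ap, an H2A gene at chr13:21833026-21833507, gave 101915, 168306 and 155427 UMIs, or 2385, 2239 and 1909 CPM, at 0, 5 and 50 ng/ml. Hist1h2ae, a further H2A gene at chr13:23570517-23571220, gave 410, 406 and 337 CPM. Hist1h1b, the gene of the linker histone H1.5 at chr13:21779883-21780625, gave 348, 354 and 286 CPM. These 3 genes held 81.2%, 78.7% and 79.4% of all histone UMIs. The other genes followed at much lower levels: 12 genes had a mean of at least 20 CPM, 23 a mean of 5 to 20 CPM, 19 a mean of 1 to 5 CPM and 13 a mean below 1 CPM. Hist1h4m and Hist1h2bq had no UMI in any library, below a floor of 3 UMIs per library or 0.0702, 0.0399 and 0.0369 CPM at 0, 5 and 50 ng/ml. The last 200 stretches of both are shared with a copy, Hist1h4n and Hist1h2br, so that this floor limits the UMIs assigned to them and not their level. The gene just above the minimum of 5 CPM, Hist1h3g, had a mean of 5.38 CPM and the one just below it, Hist1h3d, 4.57 CPM.

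Among the linker histones, Hist1h1e (H1.4) was at 53.2, 72.4 and 69.0 CPM at 0, 5 and 50 ng/ml, so that both libraries with FGF4 lay above the one without. Its ratio was 1.36 for 5 over 0 ng/ml (1.30 to 1.43) and 1.30 for 50 over 0 ng/ml (1.24 to 1.36). Hist1h1a (H1.1) was at 50.7, 60.2 and 52.3 CPM, Hist1h1d (H1.3) at 38.4, 42.5 and 39.2 CPM and Hist1h1c (H1.2) at 33.9, 35.0 and 31.5 CPM. The ratio of 50 over 0 ng/ml was 0.823 in Hist1h1b (0.806 to 0.840) and 0.930 in Hist1h1c (0.872 to 0.993), while for Hist1h1a and Hist1h1d its interval included 1.

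Among the H3 and H4 genes the 50 ng/ml library was mostly the lowest. Hist1h3c was at 79.9, 68.9 and 56.1 CPM at 0, 5 and 50 ng/ml, lower at each higher dose with no overlap of the 3 intervals. Hist1h3e was at 49.4, 47.9 and 39.6 CPM. Hist1h4d was at 57.7, 60.0 and 43.4 CPM. Hist1h4h was at 47.3, 34.8 and 29.96 CPM, and its ratio of 50 over 0 ng/ml was 0.634 (0.597 to 0.673). All 7 H3 genes with a mean of at least 5 CPM were lower at 50 than at 0 ng/ml, against 3 of 4 H4 genes and 50.1% of all genes above this minimum. The exception, Hist1h4i, was named after its values were seen and was at 12.1, 15.4 and 14.2 CPM.

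The H2B genes, which were each below 25 CPM in every library, had another order. Of the 10 with a mean of at least 5 CPM, all were higher at 5 than at 0 ng/ml and 7 were higher at 50 than at 0 ng/ml. Over all genes above this minimum the shares were 53.9% and 49.9%. Hist1h2bk, at chr13:22035870-22036345, had 149, 609 and 459 UMIs, or 3.49, 8.10 and 5.64 CPM, at 0, 5 and 50 ng/ml. Its ratio of 5 over 0 ng/ml, 2.32 (1.94 to 2.80), was the highest of the 35 genes. Of its last 200 stretches of 50 bases 53% also occur in other genes, so that its count is among those of uncertain assignment. Hist1h2bp was at 3.96, 7.45 and 5.75 CPM, with a ratio of 1.88 for 5 over 0 ng/ml (1.58 to 2.25). Each H2B gene alone added little to the sum of all histone genes, since the class held 2.87%, 3.71% and 3.59% of it.

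In H2A, a set of less used genes was highest at 5 ng/ml. Hist1h2ab, at chr13:23751126-23751598, was at 14.02, 25.4 and 13.7 CPM at 0, 5 and 50 ng/ml. Hist2h2ac, in the Hist2 cluster at chr3:96220361-96220880, was at 9.43, 15.5 and 8.99 CPM, and Hist1h2an at 5.43, 7.63 and 4.78 CPM. In all 3 genes the level at 5 ng/ml stood above both other libraries with no overlap of intervals. Hist2h2aa1, also in the Hist2 cluster, was at 27.9, 31.5 and 26.5 CPM. Hist1h2ad, at 6.55, 5.95 and 4.03 CPM, was lowest at 50 ng/ml, with a ratio of 50 over 0 ng/ml of 0.615 (0.523 to 0.724).

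Counted over the 35 genes, the difference that most of them shared was between 50 and 5 ng/ml. At 50 ng/ml 34 of the 35 were below their level at 5 ng/ml, 33 of them with an interval below 1. The share of all genes with such an interval was not counted. The median log2 ratio of 50 over 5 ng/ml was -0.31 in these genes and -0.02 in all 9137 genes with a mean of at least 5 CPM, of which 58.7% were lower at 50 ng/ml. Yet 3 of the 35, Hist1h2ab, Hist1h2an and Hist2h2ac, were at least 1.5-fold lower, against 0.547% of all genes, and 0 were at least 1.5-fold higher, against 0.383%. The shared shift was thus small in size for nearly all of them.

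Between 5 and 0 ng/ml, 26 of the 35 genes were higher and 9 lower, beside 53.9% and 46.1% of all genes. Their median log2 ratio was 0.18, against 0.02 in all genes. At least 1.5-fold higher were 4, Hist1h2ab, Hist1h2bk, Hist1h2bp and Hist2h2ac, beside 4.82% of all genes, and 0 were at least 1.5-fold lower, beside 4.76%. Between 50 and 0 ng/ml, 11 were higher and 24 lower, beside 49.9% and 50.1% of all genes. Their median log2 ratio was -0.11, against -0.00035 in all genes. Only Hist1h2bk was at least 1.5-fold higher, a share near the background of 5.29%, and Hist1h2ad and Hist1h4h were at least 1.5-fold lower, a share near the background of 7.44%. At a limit of 2-fold, Hist1h2bk alone was higher in 5 over 0 ng/ml, beside 2.04% of all genes, and 0 were lower, beside 1.43%. At this limit 0 histone genes were higher or lower in 50 over 0 ng/ml, beside 2.41% and 2.45% of all genes, or in 50 over 5 ng/ml, beside 0.164% and 0.0657%. The 3 comparisons share libraries and are not independent of each other.

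**Figure D2:**
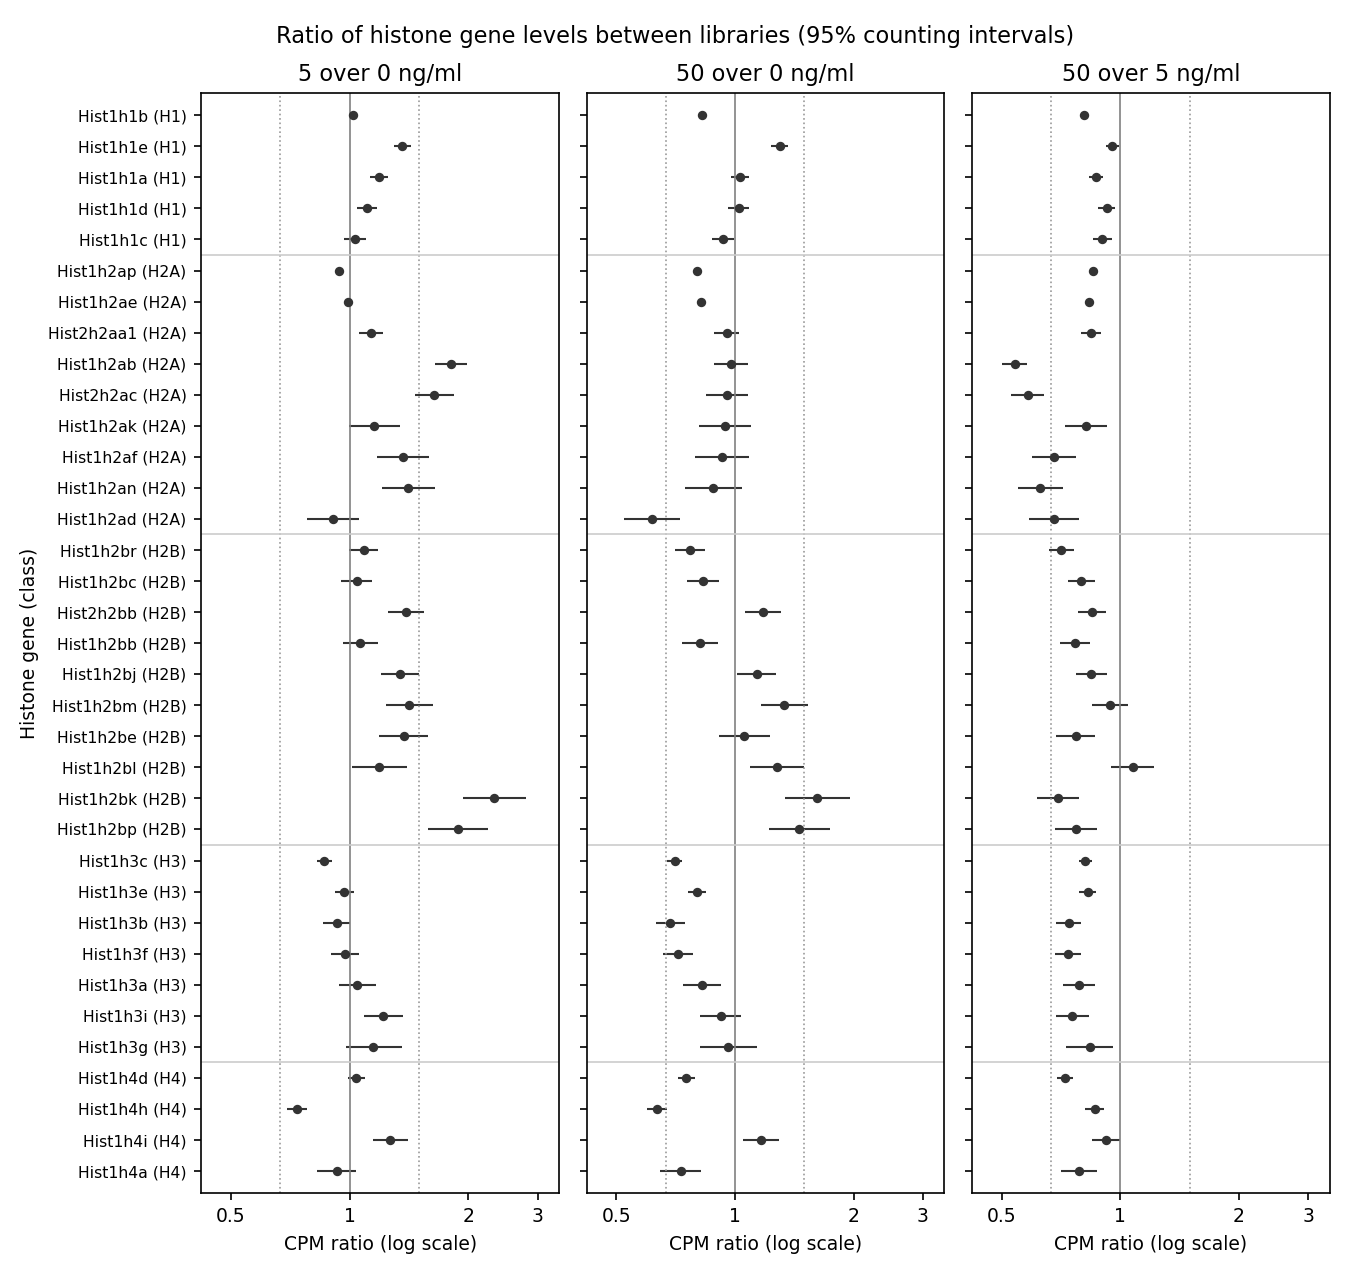
CPM ratio (log scale) of each of the 35 histone genes between libraries, with 95% counting intervals; dotted lines mark 1.5-fold. In 50 over 5 ng/ml 34 of 35 genes lie left of 1, while in 5 over 0 ng/ml all 10 H2B genes lie right of 1.

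Neighbouring H2A and H2B genes often face away from each other and share the DNA between them. The RefSeq promoter table (GRCm38.p6, 250 bases before to 50 after each start) held 61 of the 67 genes, and 9 pairs of histone genes on opposite strands had overlapping windows. Pair members differed in level: Hist1h2ae had a mean of 384 CPM and its neighbour Hist1h2bg 4.06 CPM. Of 8 pairs with UMIs of both genes, the intervals of the 2 dose ratios overlapped in 5 pairs for 5 over 0 ng/ml, in 5 for 50 over 0 ng/ml and in 7 for 50 over 5 ng/ml. Overlap is likely wherever 1 gene has few UMIs, such as Hist1h2ba with 3, 14 and 20. Genes that are not paired were not compared in this way, so these counts do not show that facing genes move together. Apart in 5 over 0 ng/ml were Hist1h2ae with Hist1h2bg, Hist1h2ad with Hist1h2bf, and the pair of Hist1h2bk. The pair of Hist1h2bk was the one farthest apart in 5 over 0 ng/ml. Hist1h2bk was 2.32 times as high at 5 as at 0 ng/ml, whereas its neighbour Hist1h2ah, at 1.24, 0.825 and 0.712 CPM, had a ratio of 0.665 (0.453 to 0.978). The last 200 stretches are shared with other genes to 53% in Hist1h2bk and to 97.5% in Hist1h2ah, so that this contrast may be affected by the assignment of UMIs. For the pair of Hist1h2an and Hist1h2bp the ratios of 5 over 0 ng/ml were 1.41 (1.21 to 1.64) and 1.88 (1.58 to 2.25), with overlapping intervals. For Hist1h2ak and Hist1h2bn they were 1.15 and 1.03, and for Hist1h2bl and Hist1h2ai 1.19 and 1.07. The pair members named here that are below 5 CPM were chosen after their values were seen.

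The 250 bases before the start are printed for Hist1h2bk, whose dose ratio was the highest, and for Hist1h1b, which has the most UMIs of the genes that share no stretch with a copy. Capitals mark the letters CCAAT, the motif of the factor NF-Y, TATAAA, the core of the TATA box, and ATTTGCAT, the octamer read by POU factors, on either strand, so that a match on the other strand is in capitals too.
Hist1h2bk (chr13:22035571-22035820, plus strand): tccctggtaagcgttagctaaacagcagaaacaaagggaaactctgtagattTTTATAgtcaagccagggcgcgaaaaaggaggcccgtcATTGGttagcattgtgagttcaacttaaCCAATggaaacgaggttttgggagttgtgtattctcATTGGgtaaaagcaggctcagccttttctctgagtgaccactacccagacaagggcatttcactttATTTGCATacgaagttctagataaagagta
Hist1h1b (chr13:21780626-21780875, minus strand): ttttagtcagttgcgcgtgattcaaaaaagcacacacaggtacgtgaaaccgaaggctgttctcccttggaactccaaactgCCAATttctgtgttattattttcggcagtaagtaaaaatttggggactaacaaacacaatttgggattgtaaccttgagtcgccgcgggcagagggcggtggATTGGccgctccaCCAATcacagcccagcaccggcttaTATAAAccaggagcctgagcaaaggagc

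Over the whole windows, CCAAT was present in 52 of the 61 histone promoters, or 85.2%, against 37.4% of 32851 promoters of the same length in the table. TATAAA was present in 57.4% of the histone promoters and in 13.6% of all. ATTTGCAT was present in 21.3%, all of them of 7 H2A and 6 H2B genes, and in 1.74% of all promoters. By class, CCAAT was in every matched H1, H2A, H2B and H3 promoter and in 3 of 12 H4 promoters. Matches to different motifs may overlap, windows of facing genes share sequence and are not independent, and a match is only a run of letters.

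Histone UMIs varied widely among cells. To compare cells of unequal depth, each cell was thinned to 40000 UMIs, which left 360, 706 and 793 cells at 0, 5 and 50 ng/ml and removed 13, 168 and 182 shallower ones. The thinned cells held a mean of 166, 161 and 135.3 histone UMIs. At 0 ng/ml the counts ran over 6, 153 and 730 UMIs (lowest, median and highest cell), at 5 ng/ml over 5, 170 and 473, and at 50 ng/ml over 4, 143 and 525. The lowest 25% of cells held 2.23%, 3.46% and 3.05% of the histone UMIs, and the highest 5% of cells held 13.6%, 11.5% and 11.5%. No thinned cell was without a histone UMI, and the part of free RNA in the lowest counts was not tested.

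**Figure D3:**
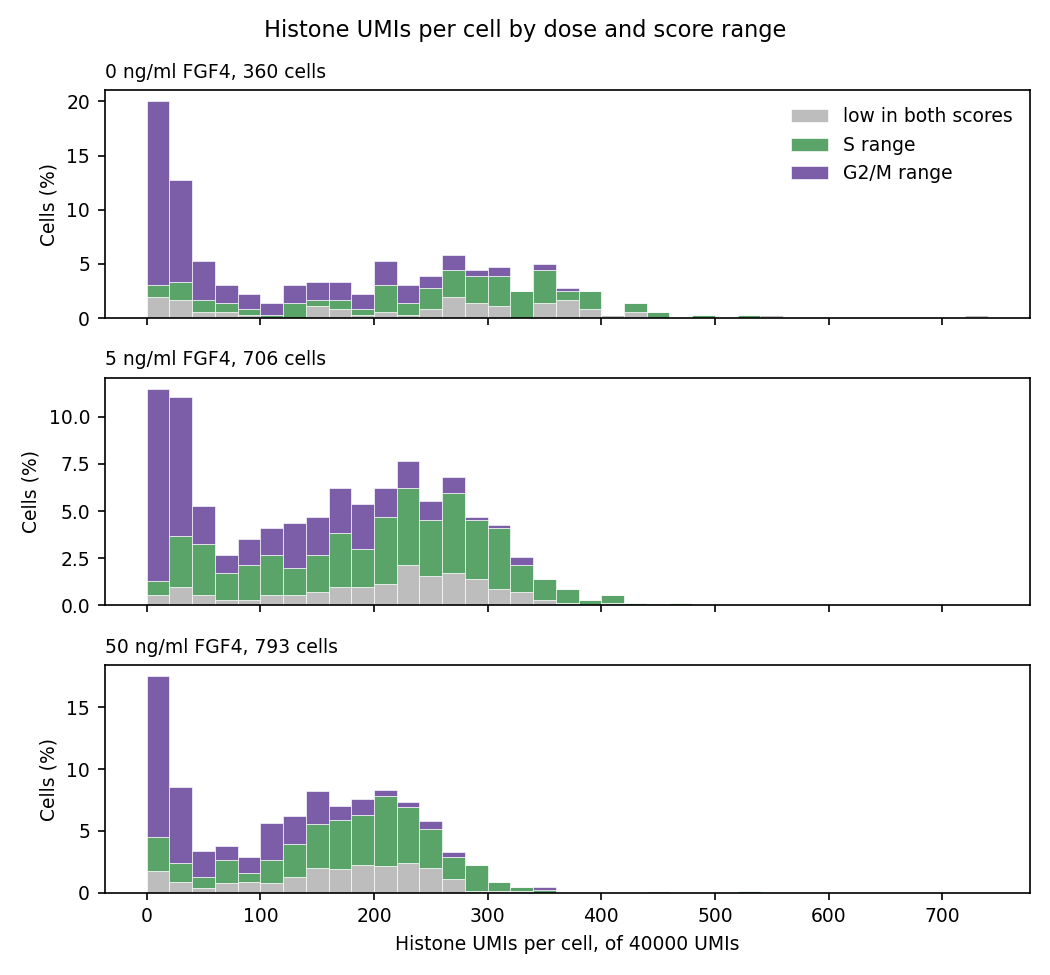
Share of cells (%) by histone UMIs per cell, of 40000 UMIs per cell, at 0, 5 and 50 ng/ml FGF4, with colours for the 3 ranges of the cell cycle scores. Cells of the G2/M range gather at low counts, with medians of 32, 50 and 32 UMIs, and the upper edge lies lower at 50 ng/ml, where the 90th percentile was 248.8 UMIs, than at 0 ng/ml, where it was 353.

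The spread exceeded that of other genes in the same range of means. The Fano factor, the variance over the mean, is 1 for pure counting error. It was 117, 72.5 and 62.3 for the histone sum at 0, 5 and 50 ng/ml. For single genes it was 78.7, 49.3 and 43.5 in Hist1h2ap and 26.5, 10.6 and 9.27 in Hist1h2ae. The median over the 44 histone genes with a mean of at least 0.1 UMI per thinned cell was 1.41, 1.29 and 1.36, against 1.14, 1.13 and 1.13 over the 10421 genes within the same range of means.

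The histone genes varied together from cell to cell. Pearson's r of log2(UMI + 1) over cells had a median of 0.19, 0.16 and 0.14 over the 946 pairs of these 44 genes at 0, 5 and 50 ng/ml (360, 706 and 793 cells), against a median of 0.003 over all pairs of the 10568 genes above the same minimum. An r above 0.3 was seen in 21.1%, 16.4% and 11.9% of the histone pairs, and in 0.013%, 0.012% and 0.015% of all pairs. Cells of 1 library share its preparation, the thinned depth is the same for each, and near-identical copies share sequence. The level sets how high r can be, since r is small where most cells hold 0 or 1 UMI.

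The strongest pairs were those of the genes with the most UMIs. Hist1h2ap and Hist1h2ae had an r of 0.93, 0.91 and 0.90 at 0, 5 and 50 ng/ml, and Hist1h2ap and Hist1h1b of 0.90, 0.86 and 0.84. Among linker histones, Hist1h1b and Hist1h1a had an r of 0.73, 0.72 and 0.69. Class sums correlated as well: H1 with H2A at 0.92, 0.89 and 0.87, H3 with H4 at 0.68, 0.65 and 0.61. Within the cells of the S range alone, defined below by scores of S-phase and G2/M genes, the r of H1 with H2A was 0.86, 0.83 and 0.84. That of H3 with H4 was 0.58, 0.58 and 0.53.

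Single genes stood apart from this pattern. For Hist1h2bk, the r with the sum of all other histone genes was 0.15, 0.12 and 0.09 at 0, 5 and 50 ng/ml, and for Hist1h2bp, at nearly the same mean level, it was 0.23, 0.28 and 0.20. Hist1h4a, singled out after its values were seen, had an r of 0.16, 0.18 and 0.14 at a mean of 10.1 CPM. Hist1h3a, at a similar mean of 11.9 CPM and also singled out afterwards, had 0.31, 0.30 and 0.25.

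**Figure D4:**
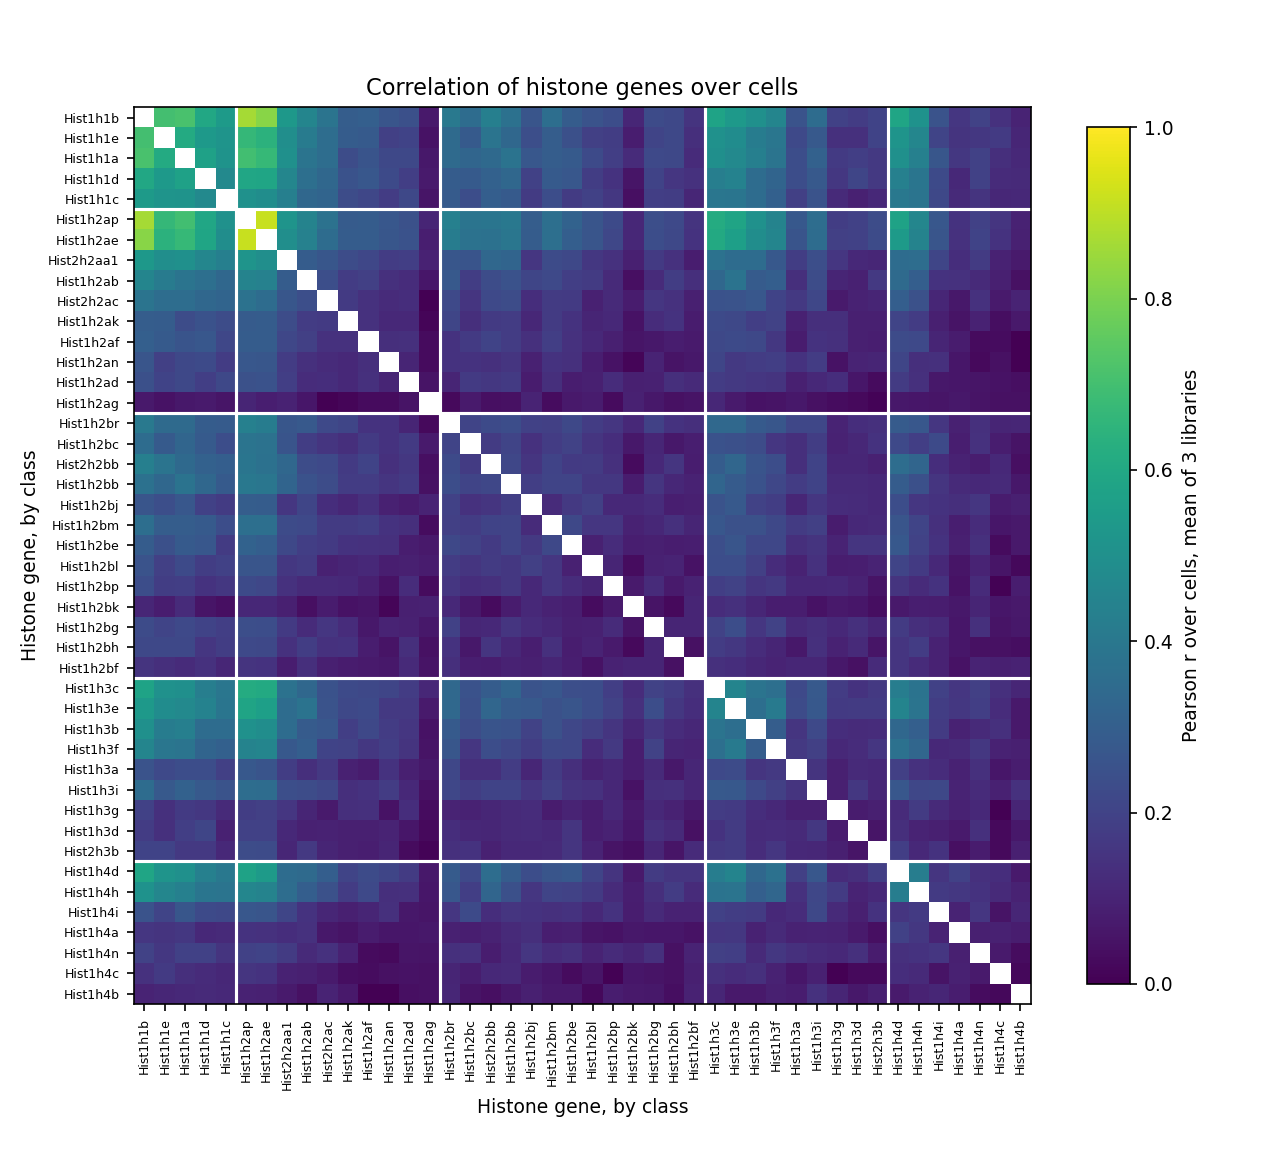
Pearson's r over cells between each pair of the 44 histone genes, as the mean of the 3 libraries, with genes ordered by class and then by level. The brightest cell is Hist1h2ap with Hist1h2ae at 0.91, and r falls along each class toward genes with fewer UMIs.

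Each cell was given an S-phase score from a list of 40 S-phase genes and a G2/M score from a list of 52 G2/M genes, none of them a histone gene. Both scores were set over the cells of all 3 libraries together. Cells were placed in an S range (S score above 0 and above the G2/M score), a G2/M range (G2/M score above 0 otherwise) and a range low in both scores. These ranges are divisions of a score, not phases: 37.2%, 41.2% and 39.1% of cells lay within 0.1 of a limit. The S range held 32.2%, 45.2% and 42.7% of cells at 0, 5 and 50 ng/ml, the G2/M range 49.2%, 38.1% and 36.2% and the low range 18.6%, 16.7% and 21.1%. Without thinning, the S range held 31.7%, 44.6% and 42.1%, the G2/M range 50.3%, 40.5% and 34.9% and the low range 18.1%, 14.9% and 23.0%.

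The main divide in histone level was between the G2/M range and the rest. At 0 ng/ml cells of the G2/M range held a mean of 85.8 histone UMIs per 40000 (84.5 to 87.2), cells of the S range 250 (247 to 253) and cells of the low range 232 (228 to 236). These intervals leave out the spread among cells, which was far larger than counting error, with a Fano factor of 117 over all cells of this library. At 5 ng/ml the means were 94.4, 201 and 206 UMIs in the same order, and at 50 ng/ml 72.1, 175 and 164 UMIs. The S range was thus 1.08, 0.972 and 1.07 times the low range at 0, 5 and 50 ng/ml, and no order between these 2 ranges held in all libraries. Cells of the G2/M range were also deeper before thinning, with a median of 125987 UMIs at 0 ng/ml, against 97162 in the S range and 88186 in the low range. Its part in these levels was not tested.

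Across the score ranges most histone genes shared a direction. At least 1.5-fold lower in the G2/M range than in the S range were 38, 35 and 34 of the 44 genes at 0, 5 and 50 ng/ml, against 3.79%, 2.57% and 2.02% of the 10476 genes compared, and 1, 0 and 0 were at least 1.5-fold higher, against 5.43%, 2.80% and 3.00%. Against the low range, 39, 32 and 31 of the 44 were at least 1.5-fold lower in the G2/M range, beside 6.83%, 2.25% and 1.89% of all, and 0 were higher in any library, beside 7.55%, 5.64% and 4.85%. Between the S range and the low range, in contrast, 3, 3 and 1 of the 44 were at least 1.5-fold higher in the S range, with a background of 7.29%, 5.66% and 4.17%, and 1, 0 and 2 were lower, with a background of 8.09%, 2.37% and 2.21%. The last counts are near the background.

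Hist1h2ap held 49.3 UMIs per cell in the G2/M range and 155 in the S range at 0 ng/ml, 52.4 and 119 at 5 ng/ml, and 39.2 and 107 at 50 ng/ml. Hist1h1b held 8.37 and 23.2, 8.51 and 20.003, and 6.70 and 16.3 UMIs in the same order. In both genes the S range was above the G2/M range in every library, by 2.26-fold to 3.14-fold in Hist1h2ap and by 2.35-fold to 2.77-fold in Hist1h1b. Hist1h2bk held 0.11 and 0.18, 0.34 and 0.32, and 0.19 and 0.23 UMIs, and in Hist1h4a the S range was 1.00, 0.84 and 1.13 times the G2/M range. These last genes, both at under 1 UMI per cell, showed no shared order of the ranges.

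Classes differed in how far the ranges lay apart. In H2A the S range was 3.18, 2.23 and 2.66 times the G2/M range at 0, 5 and 50 ng/ml, and in H1 2.69, 2.23 and 2.20 times. In H3 it was 1.95, 1.55 and 1.70 times and in H4 1.61, 1.28 and 1.40 times. H4 thus had the smallest ratio of the 5 classes in all 3 libraries. H1 was the class with the highest ratio of the S range over the low range, at 1.22, 1.24 and 1.25, whereas H4 had 0.913, 0.854 and 0.917. By gene this ratio was, for Hist1h1b 1.26, 1.25 and 1.25, for Hist1h1d 1.31, 1.26 and 1.47, for Hist1h1a 1.16, 1.30 and 1.42 and for Hist1h1c 1.21, 1.23 and 1.20, while Hist1h1e was at 0.96, 1.11 and 1.09.

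A finer order of cells, by the angle of the 2 scores in 8 bins of equal size, placed the highest histone level before the highest S score. In this order the first bins are low in G2/M score, the middle bins pass through the highest S and then the highest G2/M score, and the last bins are low in S score. At 0 ng/ml the mean was 276, 291, 209, 88.8, 50.8, 69.8, 127 and 214 histone UMIs from bin 1 to bin 8. At 5 ng/ml it was 241, 239, 209, 168, 74.2, 86.2, 112 and 160 UMIs, and at 50 ng/ml 185, 202, 184, 159, 86.9, 60.5, 71.6 and 133 UMIs. The highest bin was bin 1 or 2 and the lowest bin 5 or 6 in each library, 5.74-fold, 3.25-fold and 3.34-fold apart. The S score was highest in bin 3 at 0 ng/ml and in bin 4 at 5 and 50 ng/ml, when histone UMIs were already below their highest mean.

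The makeup of the histone UMIs moved along this order. The share of H1 was 11.9% in bin 1 and 17.1% in bin 5 at 0 ng/ml, 12.3% in bin 1 and 18.9% in bin 4 at 5 ng/ml, and 13.0% in bin 1 and 18.4% in bin 6 at 50 ng/ml. The share of H2A was highest in bin 1 or 2 in every library, at 77.4%, 77.0% and 76.7%, and lowest in bin 5 or 6, at 64.5%, 66.9% and 64.7%. H1 UMIs themselves were highest in bin 2 at 0 ng/ml and in bin 3 at 5 and 50 ng/ml (35.1 and 28.5 UMIs per cell). H2A UMIs were highest in bin 2, 1 and 2 of the 3 libraries (221, 186 and 155 UMIs per cell). In both libraries with FGF4 the highest H1 bin thus came after the highest H2A bin, and at 0 ng/ml they were the same bin. The bins were cut within each library, so a bin number does not mark the same scores at each dose. The mean S score of bin 4 was 0.10 at 0 ng/ml and 0.46 at 5 ng/ml. Neighbouring bins could also be close, such as H2A at 5 ng/ml with 186 UMIs in bin 1 and 180 in bin 2.

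**Figure D5:**
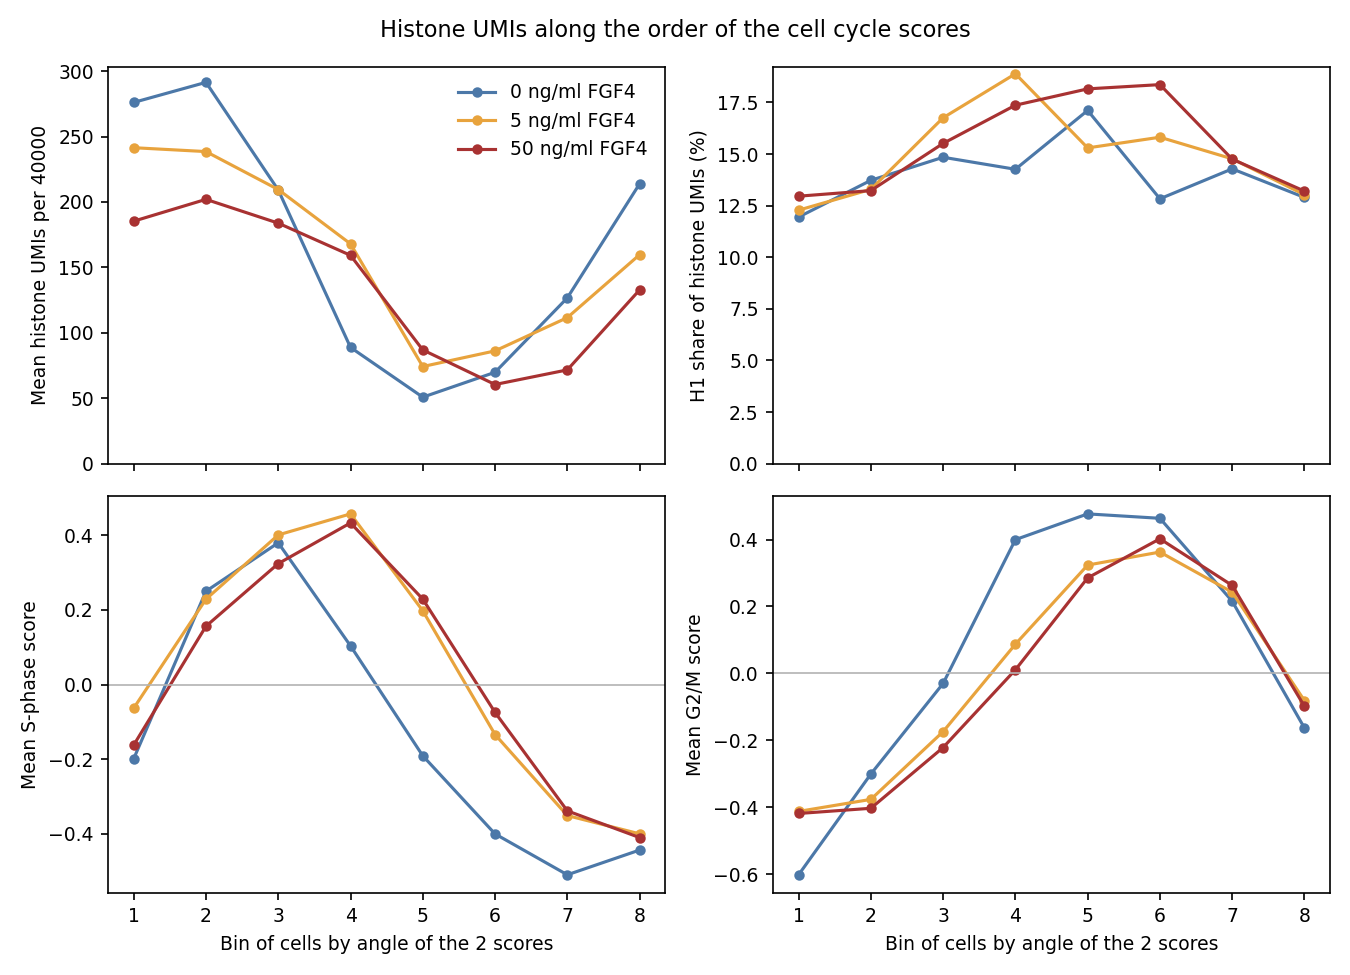
Mean histone UMIs per 40000, H1 share of histone UMIs (%), mean S-phase score and mean G2/M score in 8 equal bins of cells ordered by the angle of the 2 scores, per library. Histone UMIs are highest in bins 1 and 2 and lowest in bin 5 at 0 and 5 ng/ml and in bin 6 at 50 ng/ml, and the H1 share is highest in bins 4 to 6.

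Dose and score range were read together, since the libraries held unequal shares of the ranges. Within the S range the mean histone level was 0.803 times as high at 5 as at 0 ng/ml, 0.6998 times as high at 50 as at 0 ng/ml and 0.871 times as high at 50 as at 5 ng/ml. Within the low range the 3 ratios were 0.891, 0.707 and 0.794, and within the G2/M range 1.10, 0.840 and 0.764. The 50 ng/ml library was the lowest in all 3 ranges. With the ranges held at the shares of the 0 ng/ml library, the ratio was 0.901 for 5 over 0 ng/ml and 0.737 for 50 over 0 ng/ml, against 0.972 and 0.816 over all thinned cells. The libraries with FGF4 had the smaller share of G2/M cells, and with equal shares their distance to the 0 ng/ml library was larger. The score genes themselves differed by dose. The median log2 ratio of the G2/M list was -0.11 for 5 over 0 ng/ml and -0.16 for 50 over 0 ng/ml, and that of the S-phase list was 0.12 for both. How far this difference moved the shares of the ranges was not tested.

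Gene by gene, the S range and the whole libraries differed in direction for a minority of genes, most of them in 5 over 0 ng/ml. The S range holds only thinned cells, and its ratios carry no interval. Of the 35 genes with a mean of at least 5 CPM, 12 had a ratio of 5 over 0 ng/ml on the other side of 1 within the S range, 5 had such a ratio of 50 over 0 ng/ml, and 0 had one of 50 over 5 ng/ml. All 12 were above 1 in the library and below 1 in the S range, among them Hist1h1b (0.86 in the S range), Hist1h1d (0.91) and Hist1h4d (0.82). Others of the 12 lay close to 1 there, such as Hist1h2be (0.995), Hist1h2an (0.977) and Hist1h2ak (0.972). Of the 10 H2B genes, all of which were higher at 5 than at 0 ng/ml in the libraries, 6 were higher within the S range. In 50 over 0 ng/ml 5 of the 10 were above 1 and 5 below it there. The whole H2B class held 6.59, 7.34 and 5.86 UMIs per cell in the S range at 0, 5 and 50 ng/ml. It held 6.48, 7.20 and 5.60 in the low range, so that 50 ng/ml was the lowest in both. Only in the G2/M range, at 2.79, 3.96 and 3.21, was 0 ng/ml the lowest. The ratio of 50 over 0 ng/ml within the S range was 0.69 for Hist1h2ap, 0.63 for Hist1h2ae, 0.70 for Hist1h1b, 0.60 for Hist1h3c and 0.57 for Hist1h4h. It was 0.93 for Hist1h1a and 0.81 for Hist1h1d, both above 1 in the libraries. It was 1.15 for Hist1h1e, 1.29 for Hist1h2bk and 1.71 for Hist1h2bp. Hist1h2ab, which was highest at 5 ng/ml in the library sums, had ratios of 1.66 for 5 over 0 ng/ml and 0.56 for 50 over 5 ng/ml there.

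The relation to the S-phase genes was positive but modest cell by cell. The log2 histone sum had an r with the S score of 0.32, 0.22 and 0.23 at 0, 5 and 50 ng/ml, and with the G2/M score of -0.47, -0.53 and -0.52. Of 6332 genes outside the clusters with at least 0.5 UMI per thinned cell in each library, the 10 most like the histone sum had a mean r over the 3 libraries of 0.20 to 0.41. The gene with the highest value was H3f3b, at 0.39, 0.44 and 0.40, followed by Pcna, the sliding clamp of the replication fork, at 0.33, 0.20 and 0.27. After these came Mid1, a ubiquitin ligase, Pclaf, which binds PCNA, Rbm39, a splicing factor, and Orc6 of the origin recognition complex. The list closed with Dnajc9, a co-chaperone of H3 and H4, Slbp, Chaf1b, a subunit of the chromatin assembly factor CAF-1, and Fam111a, a PCNA-binding protease. H3f3b itself differed less between ranges than the histone sum, with the S range at 0.97, 0.95 and 0.95 times the low range. Its G2/M range was the lowest, at 0.90, 0.87 and 0.90 times the low range.

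At the other end stood genes of mitosis. Ube2c, which loads ubiquitin for the anaphase-promoting complex, had an r with the histone sum of -0.55, -0.53 and -0.57, and Nusap1, a spindle protein, of -0.57, -0.50 and -0.51. Over the lists, the median r was 0.13, 0.10 and 0.09 for 38 S-phase genes, -0.17, -0.15 and -0.15 for 52 G2/M genes and close to 0 (-0.004, -0.002 and -0.002) for all 6332 genes. Of the S-phase genes, 2 of 38 had a mean r above 0.2, against 0.158% of all genes.

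Genes that act on histone messages and proteins were read against the same background. Of 14 genes for histone message synthesis, processing and decay, 0 were at least 1.5-fold higher and 0 lower in 5 over 0, 50 over 0 or 50 over 5 ng/ml. Over all genes the shares higher were 4.82%, 5.29% and 0.383% and the shares lower 4.76%, 7.44% and 0.547%, so that a count of 0 in so short a list is near the background. Slbp was at 116, 141 and 141 CPM and Npat at 29.5, 30.4 and 29.2 CPM at 0, 5 and 50 ng/ml, with a ratio of 1.21 for Slbp in 5 over 0 and in 50 over 0 ng/ml. Of 16 histone chaperone genes, again 0 were at least 1.5-fold apart in either direction. Nasp, a chaperone of H3 and H4, was at 1007, 1101 and 1152 CPM. Along the score ranges Slbp differed more than by dose: its level in the S range was 1.66, 1.67 and 1.74 times that in the low range. The S-phase list of 40 genes had 2, 1 and 0 genes at least 1.5-fold higher in 5 over 0, 50 over 0 and 50 over 5 ng/ml and 0 lower in any of them, with a median log2 ratio of 0.12 for 5 over 0 ng/ml and 0.12 for 50 over 0 ng/ml, so that its direction at 50 ng/ml was opposite to that of the histone sum.

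The list of histone genes outside the clusters held 11 genes, among them Cenpa, the gene of the centromeric H3 variant, whose level in the G2/M range was 1.86, 1.51 and 1.47 times that in the low range at 0, 5 and 50 ng/ml. H2afz, the gene of the variant H2A.Z, was at 1650, 2132 and 2377 CPM at 0, 5 and 50 ng/ml, and its highest level was thus in the library where the clustered genes were lowest. H3f3a was at 1061, 1122 and 1125 CPM and H3f3b at 1127, 1218 and 1205 CPM. H2afy, the gene of macroH2A1, was at 284, 147 and 135.4 CPM, with a ratio of 0.48 for 50 over 0 ng/ml. It was the 1 gene of the 11 that was at least 1.5-fold lower in 5 over 0 and in 50 over 0 ng/ml, and 0 were at least 1.5-fold higher in these comparisons. All 11 summed to 5376, 5762 and 5987 CPM, and this order rests on H2afz. The other 10 summed to 3726, 3630 and 3610 CPM, highest at 0 and lowest at 50 ng/ml. That order rests in turn on H2afy, whose fall from 0 to 5 and to 50 ng/ml is larger than the fall of this sum. This sum without H2afz was chosen after seeing the data.

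Barcodes of poor quality were not removed from the library sums. Barcodes that failed a filter on depth (within 3-fold of the library's median) and mitochondrial share (at most 10%) numbered 14, 168 and 177, and their histone level was 5173, 1417 and 1668 CPM at 0, 5 and 50 ng/ml. The barcodes that passed it had 3856, 3883 and 3246 CPM. The ratio of 50 over 0 ng/ml was 0.842 among these cells and that of 5 over 0 ng/ml was 1.01, on the other side of 1 from the value over all barcodes.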

How the data were processed

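The deposited matrices hold UMI counts per gene and cell barcode, made with Cell Ranger 4.0.0 per the file headers and on mm10 per the submitters' processing notes. The sources used here do not give the annotation release. CPM are summed counts per 1000000 UMIs of the library. Levels carry exact Poisson intervals and ratios conditional binomial intervals (95%), for counting error only. Genes with a mean of at least 5 CPM were compared, with limits of 1.5-fold and 2-fold. Counts for 9137 genes were simulated with Poisson error only, the error that the intervals cover. There 95.4% of intervals held the true ratio of 50 over 0 ng/ml, all genes changed 2.5-fold were called and 0 of 8937 unchanged genes were. Variation between cultures or libraries was not simulated, so these values give no error rate for the limit of 1.5-fold in these data. Cells were thinned to 40000 UMIs at random. Score genes needed 0.1 UMI per cell. Coordinates and transcripts came from GENCODE M21, promoters from RefSeq. Tools were Python 3.11.15, numpy 2.4.6, scipy 1.17.1, pandas 2.3.3, scanpy 1.11.5 (Scrublet, 12, 7 and 26 doublets, kept in the main values) and edgeR 4.0.16 (TMM factors only). Genes and lists were chosen with earlier results of these data known. Named genes are the 12 with the highest mean CPM, those at least 1.5-fold apart between libraries, the 10 most like the histone sum, and members of the comparison lists.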

Additional observations from a re-analysis of the deposited data

How the results depend on the processing

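No paired analysis was possible because each dose was 1 library. Of 264 values recomputed for the main results, 208 stayed within their counting or cell-to-cell error, or within 1.5 times for counts of genes. A change of direction was looked for only in correlations and in values at least 1.5-fold from 1, and 0 of these changed. The summed levels, all closer to 1, and the counts of genes were outside this rule. The summed level of 50 over 0 ng/ml was 0.847 with TMM and 0.848 with median of ratios scaling, 0.814 with totals free of mitochondrial and ribosomal protein genes, 0.862 without Hist1h2ap, 0.903 without the 3 genes with the most UMIs, 0.842 in cells that passed the filter and 0.745 as the mean share per cell. That of 50 over 5 ng/ml was 0.856, 0.862 (both scalings), 0.817 and 0.814 (without 1 and 3 genes), 0.843 (doublets left out) and 0.861 (share per cell). That of 5 over 0 ng/ml was 0.971 with the reduced totals, 1.05 and 1.11 without 1 and 3 genes, 1.01 with the filter and 0.865 as share per cell, so that its side of 1 depends on these choices.

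Counts of genes past the limit were small and moved with it. For 5 over 0 ng/ml the 4 higher genes became 1 at 2-fold, 0 at a mean of at least 20 CPM and 13 with no minimum, and the 0 lower ones became 2. For 50 over 0 ng/ml the 1 higher gene became 0 at 2-fold and at 20 CPM, 3 at 1 CPM and 7 with no minimum, and the 2 lower ones became 0 at 2-fold, 1 at 20 CPM and 5 with no minimum. For 50 over 5 ng/ml the 3 lower genes became 0 at 2-fold and at 20 CPM, 7 at 1 CPM and 8 with no minimum. TMM, median of ratios and the cell filter left each of the 6 counts within 1.5 times.

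The median r of histone pairs was 0.33, 0.27 and 0.23 with no thinning at 0, 5 and 50 ng/ml. The r with the G2/M score was -0.64 and -0.61 at 60000 UMIs for 0 and 50 ng/ml, -0.61, -0.60 and -0.57 as Spearman's rho, and -0.46 at 50 ng/ml without Hist1h2ap. The S range over the low range at 5 ng/ml was 1.08 at 20000 UMIs, above 1. The G2/M range over the low range was 0.377 at 50 ng/ml at 60000 UMIs, and 0.529 and 0.525 at 5 and 50 ng/ml without Hist1h2ap, where the highest over the lowest bin was 2.55 at 50 ng/ml. The Fano factor follows depth by construction: 61.4, 38.2 and 32.4 at 20000 UMIs, 166, 107 and 92.2 at 60000, and 45.3, 28.5 and 25.4 without Hist1h2ap.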

Other observations

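Histone genes known from the testis were close to the limit of detection. Hist1h1t, the testis-specific linker histone, had 3, 14 and 14 UMIs at 0, 5 and 50 ng/ml, and Hist1h2ba, a testis H2B gene, had 3, 14 and 20 UMIs. Hist1h2aa, its divergent neighbour, was at 1.36, 1.76 and 1.54 CPM. The Hist3 pair, Hist3h2a and Hist3h2ba, was at 1.19, 1.76 and 1.99 CPM and at 1.26, 1.86 and 2.05 CPM, so that both genes were lowest at 0 ng/ml and highest at 50 ng/ml. Their ratios of 50 over 0 ng/ml were 1.67 (1.21 to 2.33) and 1.62 (1.19 to 2.25), unlike the sum of all clustered genes. These genes were singled out after their values were seen and lie below the minimum of 5 CPM.

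A list of 5 genes of the 2-cell-like state summed to 26.96, 6.05 and 43.5 CPM at 0, 5 and 50 ng/ml, with Zscan4c at 11.8, 3.15 and 18.7 CPM. The list was lowest at 5 ng/ml, where the sum of the H2B genes and that of H2A without Hist1h2ap and Hist1h2ae were highest. Single genes differed from these sums, such as Hist1h2bl, highest at 50 ng/ml, and Hist1h2ad, highest at 0 ng/ml. The list's part in the histone levels was not tested.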
